A study of Rattus norvegicus with 6 samples.

Results

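The genes described here encode chemokines that draw monocytes into tissue, the CC ligands Ccl2, Ccl7, Ccl12, Ccl3, Ccl4 and Ccl5 and fractalkine, Cx3cl1, with the receptors Ccr2 and Cx3cr1. They were chosen by name, 9 genes in all, and 8 of them were matched to a row among the 24988 genes of the deposited table. Expression of Ccr2 was not analysed here. Libraries were made from total RNA of abdominal aortas of Sprague-Dawley rats, and every rat group carried an aneurysm: 3 libraries came from aneurysms left untreated and 3 from aneurysms given NP, a targeted nanotherapy by the series title. The sources used here do not say how the aneurysms were made, what NP consists of, its dose and timing, or how old the rats were. They do not state that each library is another animal either, so p-values measure only how far these samples spread, which may be technical.

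Chemokines are small secreted proteins that bind receptors coupled to G proteins and steer leukocytes along a gradient. Ccl2 and Ccl7 act on Ccr2, the receptor that releases inflammatory monocytes from bone marrow and brings them into an inflamed vessel wall, and Ccl12 does so in the mouse. Ccl3, Ccl4 and Ccl5 attract macrophages and T cells, and Ccl3 and Ccl5 act on the receptor Ccr1. Fractalkine is made as a membrane protein on endothelium, smooth muscle and neurons, is cut free by proteases, and binds Cx3cr1 on patrolling monocytes and resident macrophages.

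The comparison asks how these transcripts differed between NP-treated and untreated aneurysms. The 3 ligands of Ccr2 averaged lower in NP-treated aortas, by 1.92 times for Ccl2, 1.91 times for Ccl7 and 2.61 times for Ccl12. Ccl3, Ccl4, Ccl5, fractalkine and Cx3cr1 had fitted folds above 1, and for each of these 5 the fold was below 1 once a single treated library was left out. None of the 8 members passed an adjusted p of 0.05 over all 16522 genes tested by edgeR's quasi-likelihood test, where 0% of all genes passed. Unadjusted, 3 of 8 members had p under 0.05, all of them lower (1 to 3 members with 1 library left out), beside 1.34% of all genes lower and 1.93% in either direction at that level. In 2 of 8, Ccl7 and Ccl12, all 3 treated libraries lay below all 3 untreated ones, beside 3.2% of all genes. In 0 of 8 did all treated libraries lie above all untreated ones, beside 2.47% of all genes, and 5.67% of all genes had groups apart in either direction. DESeq2 called 0 members and 0.157% of all genes.

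Promoter sequence was matched for 5 of the 9 members, and 3 are shown. Ccl7 and Ccl12 are the pair whose groups did not overlap, and Cx3cl1 is a ligand that did not share their pattern. Each run holds the 250 bases before the gene's start in RefSeq's GRCr8 build, 5′ to 3′ on the gene's strand, at chr10:67513845-67514094 (plus strand) for Ccl7, chr10:67567626-67567875 (plus) for Ccl12 and chr19:10242821-10243070 (minus) for Cx3cl1. Capitals mark matches, on either strand, to TATAAA, to the AP-1 pattern TGANTCA and to the Sp1 pattern GGGCGG, none of which overlap.
Ccl7: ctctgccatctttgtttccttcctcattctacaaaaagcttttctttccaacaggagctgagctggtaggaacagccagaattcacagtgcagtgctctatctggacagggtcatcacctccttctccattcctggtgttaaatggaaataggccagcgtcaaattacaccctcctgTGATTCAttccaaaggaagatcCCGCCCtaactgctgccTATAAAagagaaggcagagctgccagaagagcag
Ccl12: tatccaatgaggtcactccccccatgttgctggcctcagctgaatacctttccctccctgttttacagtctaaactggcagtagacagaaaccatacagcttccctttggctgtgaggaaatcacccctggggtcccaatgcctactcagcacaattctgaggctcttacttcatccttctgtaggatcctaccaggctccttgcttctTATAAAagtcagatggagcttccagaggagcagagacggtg
Cx3cl1: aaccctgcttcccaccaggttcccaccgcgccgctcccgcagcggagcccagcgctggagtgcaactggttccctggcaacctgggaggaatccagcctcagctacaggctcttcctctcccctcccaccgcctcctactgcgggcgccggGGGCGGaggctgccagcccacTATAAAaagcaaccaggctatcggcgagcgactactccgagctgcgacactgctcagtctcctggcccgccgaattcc

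A TATAAA match began 34 bases before the start of Ccl7, 41 before that of Ccl12 and 78 before that of Cx3cl1, and 12.9% of the 33469 promoters in the RefSeq table hold one in the same window. In Ccl7 an AP-1 match and an Sp1 match began 73 and 51 bases before the start, and Cx3cl1 had an Sp1 match that began 99 bases before it. Of all promoters 6.34% hold the AP-1 pattern and 30.5% the Sp1 pattern. Ccl12 had neither, and Cx3cl1 no AP-1 match, in these letters. The other matched promoters, those of Ccr2 and Cx3cr1, are not shown and held no match to any of these patterns. A match describes the sequence and shows no bound factor.

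Total counts ran from 26100468 to 30939002 per library. Smooth muscle markers were present in all 6 libraries, with Acta2, the smooth muscle actin, at 555 to 1909 CPM (counts scaled to each library's size, with TMM factors), and so were macrophage markers, with Cd68 at 804 to 1912 CPM. NP-treated replicate 1 stood apart in several marker sums: it held the lowest endothelial sum, 443 CPM against 761 to 1553 elsewhere, the lowest smooth muscle sum, 2501 against 2829 to 5087, and the highest monocyte sum, 2035 against 813 to 1209. In whole tissue, fewer cells of a type and less RNA per cell cannot be told apart.

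The level of each member, compared between genes as the deposited FPKM, which divides counts by gene length, put Ccl2 first in untreated aneurysms. It averaged 84.4 ± 21.9 FPKM (SD, n = 3), and its mean over all 6 libraries lay above 93.95% of the tested genes. Ccl3 followed at 46.2 ± 13.1 FPKM, with a range that overlapped that of Ccl2. Ccl7 at 29.7 ± 3.004, Ccl12 at 19.7 ± 12.005, Ccl5 at 18.8 ± 2.51 and Ccl4 at 12.4 ± 4.55 FPKM came next, each overlapping its neighbour in that order, with a gap between Ccl3 and Ccl7. Cx3cl1 at 5.37 ± 3.16 and Cx3cr1 at 3.45 ± 2.42 FPKM were the lowest 2, below every Ccl4 value and overlapping each other.

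In NP-treated aortas the order of the means was another: Ccl3 came first, at 80.4 ± 68.1 FPKM, Ccl2 followed at 41.9 ± 17.5, and Ccl12 came seventh of 8, at 7.36 ± 1.65 FPKM. Every pair of neighbours in that order overlapped.

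**Figure D1:**
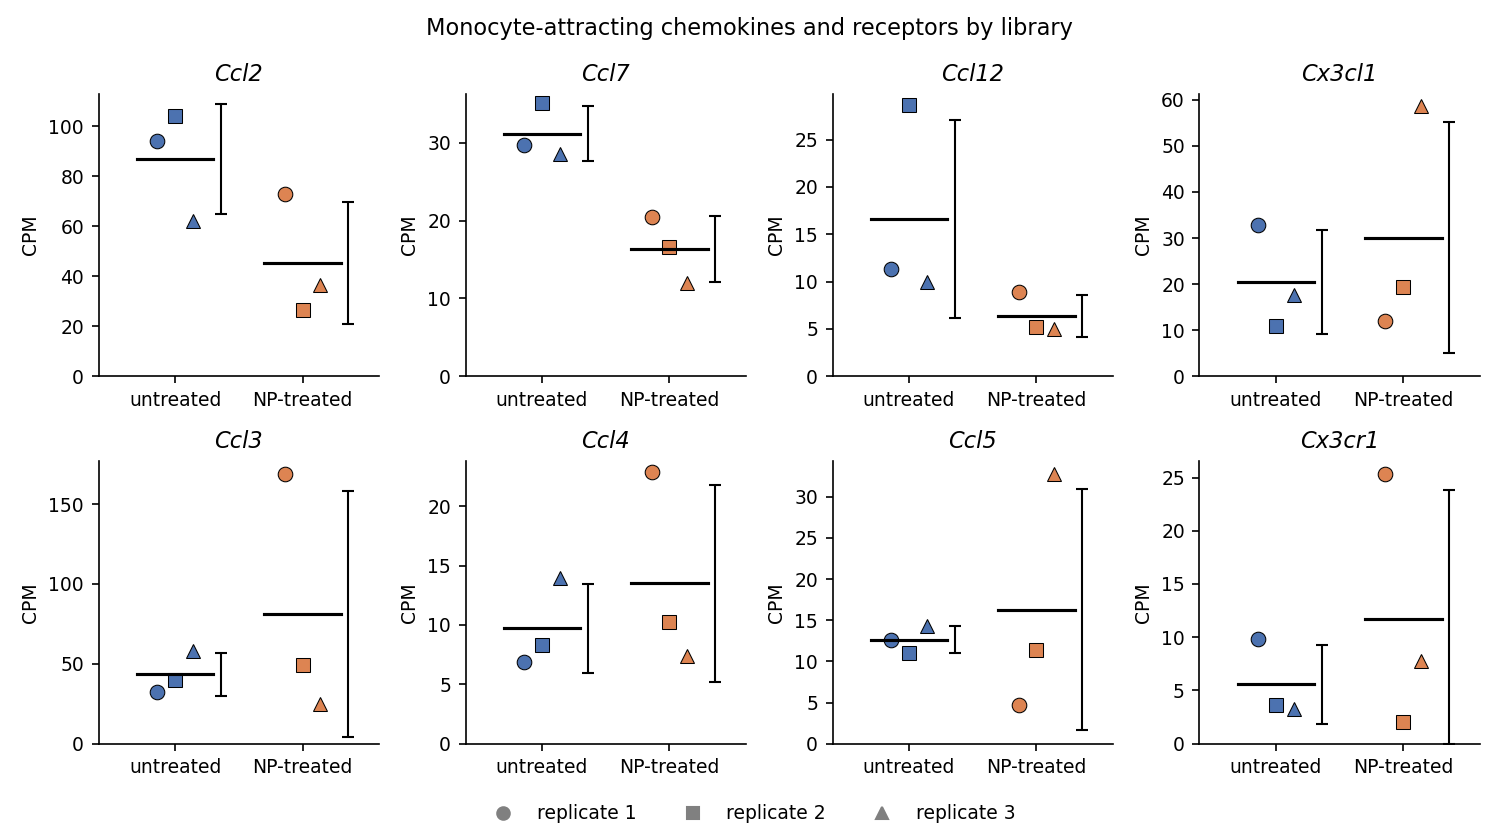
CPM of the 8 members in each library, untreated (blue) and NP-treated (orange), with the replicate number given by the point's shape, the group mean by a bar and 1 SD by the whisker, which stops at 0. The treated points of Ccl7 and Ccl12 all lie under the untreated ones, while Ccl3, Ccl4 and Cx3cr1 peak in NP-treated replicate 1 and Ccl5 and Cx3cl1 in NP-treated replicate 3.

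Among the ligands of Ccr2, Ccl2, the main monocyte attractant, was at 94.3, 104 and 62.2 CPM in untreated replicates 1 to 3 and at 72.8, 26.6 and 36.6 CPM in NP-treated replicates 1 to 3. The groups overlapped, because NP-treated replicate 1 lay above untreated replicate 3. Its log2 fold change, treated minus untreated, was -0.94 (SE 0.40, 95% interval -1.87 to -0.01, unadjusted p = 0.0481, adjusted p = 0.99999 by edgeR). It was -1.47 without NP-treated replicate 1 and -0.67 without NP-treated replicate 2, and with each library left out in turn the unadjusted p by edgeR was 0.05 or more in 4 of 6 fits, from 0.00179 to 0.132.

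Ccl7, which attracts monocytes and eosinophils, was at 29.7, 35.2 and 28.6 CPM in untreated replicates 1 to 3 and at 20.5, 16.6 and 11.97 CPM in NP-treated replicates 1 to 3. The untreated libraries lay close together, with a coefficient of variation of 11.3%, and all 3 treated libraries were under them. The log2 fold change was -0.93 (SE 0.24, 95% interval -1.49 to -0.37). By edgeR its unadjusted p, 0.00561, was the smallest of the members and ranked 37 among all 16522 genes, and its adjusted p = 0.99999 missed the threshold. The unadjusted p stayed under 0.05 in all 6 fits that left out 1 library, at 0.0232 or less by edgeR.

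Ccl12 was at 11.3, 28.7 and 9.91 CPM in untreated replicates 1 to 3 and at 8.89, 5.19 and 5.04 CPM in NP-treated replicates 1 to 3. The groups did not overlap, but untreated replicate 2 stood well above the other untreated libraries, and the gap between untreated replicate 3 and NP-treated replicate 1 was small. The log2 fold change was -1.38 (SE 0.47, 95% interval -2.50 to -0.27, unadjusted p = 0.0216, adjusted p = 0.99999 by edgeR). Without untreated replicate 2 it was -0.74 (unadjusted p = 0.0878, adjusted p = 0.9999 by edgeR), and the unadjusted p was 0.05 or more in 3 of the 6 fits that left out 1 library. That library also held the highest summed level of 14 T and NK cell markers, 615 CPM against 235 to 388 elsewhere. Cd4 alone gave 371 of the 615 CPM there, and 169 to 307 CPM elsewhere. The B and plasma cell marker sum was highest in that library too, at 238 CPM against at most 142 elsewhere. So was the macrophage marker sum, at 30897 CPM, with 30387 CPM in NP-treated replicate 1. The part of any of these cells in the result was not tested.

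In all 6 libraries the ratio of Ccl2 to Ccl7 in FPKM stayed between 1.63 and 3.63, and that of Ccl7 to Ccl12 between 0.978 and 2.56. Untreated replicate 2 was highest for all 3 genes. By CPM the order of the 6 libraries was the same for Ccl7 and Ccl12, while by FPKM NP-treated replicates 1 and 2 traded places.

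Ccl3, a product of activated macrophages, went another way. It was at 32.2, 39.8 and 58.0 CPM in untreated replicates 1 to 3 and at 169, 49.1 and 24.9 CPM in NP-treated replicates 1 to 3. The highest and the lowest library were both treated ones. The log2 fold change was 0.90 (SE 0.65, unadjusted p = 0.208, adjusted p = 0.99999 by edgeR), and without NP-treated replicate 1 it was -0.23.

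Ccl4, a related attractant of macrophages and T cells, was at 6.87, 8.30 and 13.9 CPM in untreated replicates 1 to 3 and at 22.9, 10.2 and 7.39 CPM in NP-treated replicates 1 to 3. Its peak was in the same library as that of Ccl3, and the ratio of Ccl3 to Ccl4 in FPKM was highest there, 6.14, against 2.80 to 4.01 in the other 5 libraries. Its log2 fold change of 0.48 (SE 0.48) became -0.15 without that library.

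Ccl5, made by T and NK cells as well as by macrophages and vessel wall cells, was at 12.6, 11.0 and 14.3 CPM in untreated replicates 1 to 3 and at 4.72, 11.3 and 32.8 CPM in NP-treated replicates 1 to 3. The untreated libraries were close together, and the treated ones held both the lowest and the highest value. The log2 fold change was 0.36 (SE 0.62), and without NP-treated replicate 3 it was -0.66. The T and NK cell marker sum in that library, 282 CPM, lay inside the range of the others, 235 to 615 CPM. Cd4 made up 169 of the 282 CPM, and this was its lowest level in the 6 libraries. Of the 14 markers in the sum, 3 were highest in NP-treated replicate 3, the cytotoxic granule genes Nkg7, Gzmb and Prf1, and 10 in untreated replicate 2.

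Fractalkine, Cx3cl1, was at 32.9, 10.8 and 17.6 CPM in untreated replicates 1 to 3 and at 12.1, 19.3 and 58.7 CPM in NP-treated replicates 1 to 3. NP-treated replicate 3 and untreated replicate 1 were the 2 highest. The log2 fold change was 0.55 (SE 0.64, 95% interval -0.94 to 2.05), and without NP-treated replicate 3 it was -0.39. These 2 libraries also had the highest sums of 9 nerve and Schwann cell markers, 818 CPM in NP-treated replicate 3 and 454 CPM in untreated replicate 1, against 66.8 to 178 CPM elsewhere, with Th, Dbh and Elavl4 at 0 in at least 1 library. The sum of 8 endothelial markers was highest in NP-treated replicate 3, at 1553 CPM, and lowest in NP-treated replicate 1, at 443 CPM. The part of either cell type in the result was not tested.

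Cx3cr1, the receptor of fractalkine, was at 9.80, 3.63 and 3.27 CPM in untreated replicates 1 to 3 and at 25.3, 2.0 and 7.75 CPM in NP-treated replicates 1 to 3. The treated libraries again enclosed the untreated ones. The log2 fold change was 1.07 (SE 0.86, 95% interval -0.96 to 3.10), and without NP-treated replicate 1 it was -0.20. The ligand and the receptor did not peak together: the ratio of Cx3cl1 to Cx3cr1 in FPKM ran from 0.203 in NP-treated replicate 1 to 4.12 in NP-treated replicate 2.

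**Figure D2:**
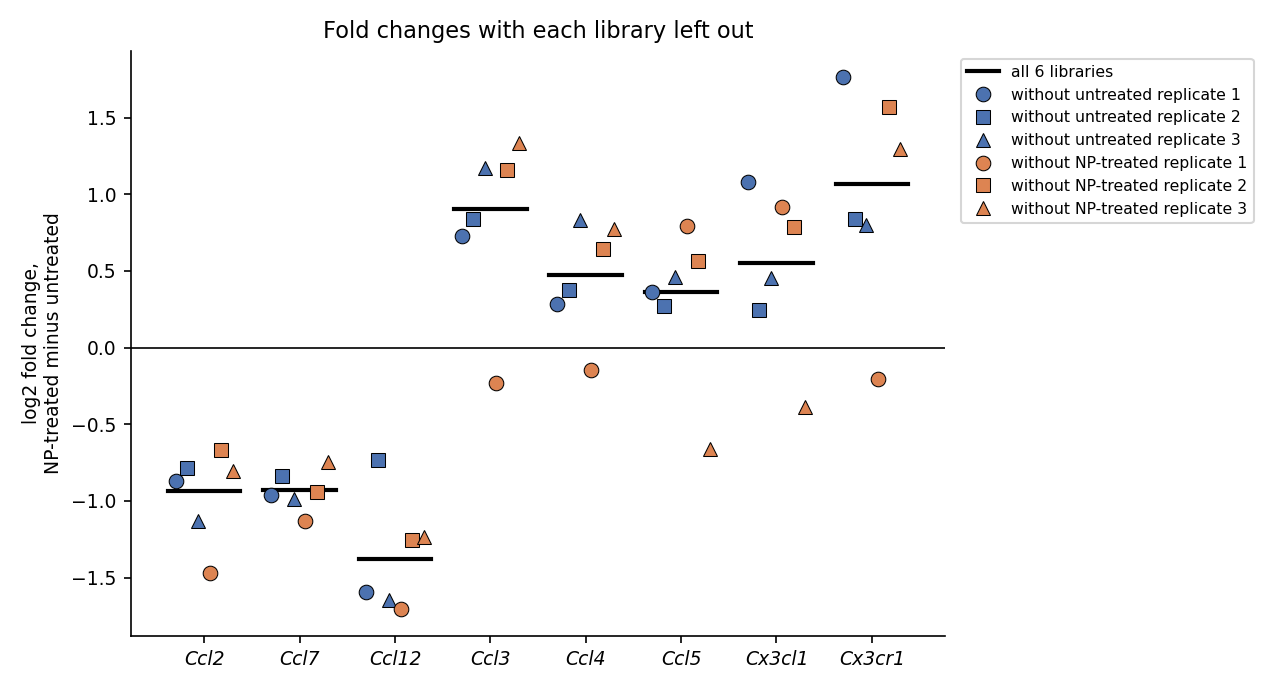
Log2 fold change, treated minus untreated, of each member by edgeR with all 6 libraries (black bar) and with each library left out in turn (points). Ccl2, Ccl7 and Ccl12 stay below 0 in every fit, from -0.67 to -1.71, while Ccl3, Ccl4 and Cx3cr1 cross 0 without NP-treated replicate 1 and Ccl5 and Cx3cl1 without NP-treated replicate 3.

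Of the summed FPKM of the 6 CC ligands, Ccl2, Ccl7 and Ccl12 together held 68.3%, 70.8% and 49.5% in untreated replicates 1 to 3, as against 31.7%, 36.7% and 38.4% in NP-treated replicates 1 to 3. Every treated share was below every untreated one. The summed level of all 6 did not separate the groups, at 197 to 233 FPKM untreated and at 276, 142 and 140 FPKM in NP-treated replicates 1, 2 and 3. In NP-treated replicate 1, Ccl3 alone held 56.8% of the sum, and in NP-treated replicate 3, Ccl5 held 35.4%, against 2.20% to 12.9% elsewhere. These shares describe the members and were not tested, since the genes in them were chosen with results known.

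**Figure D3:**
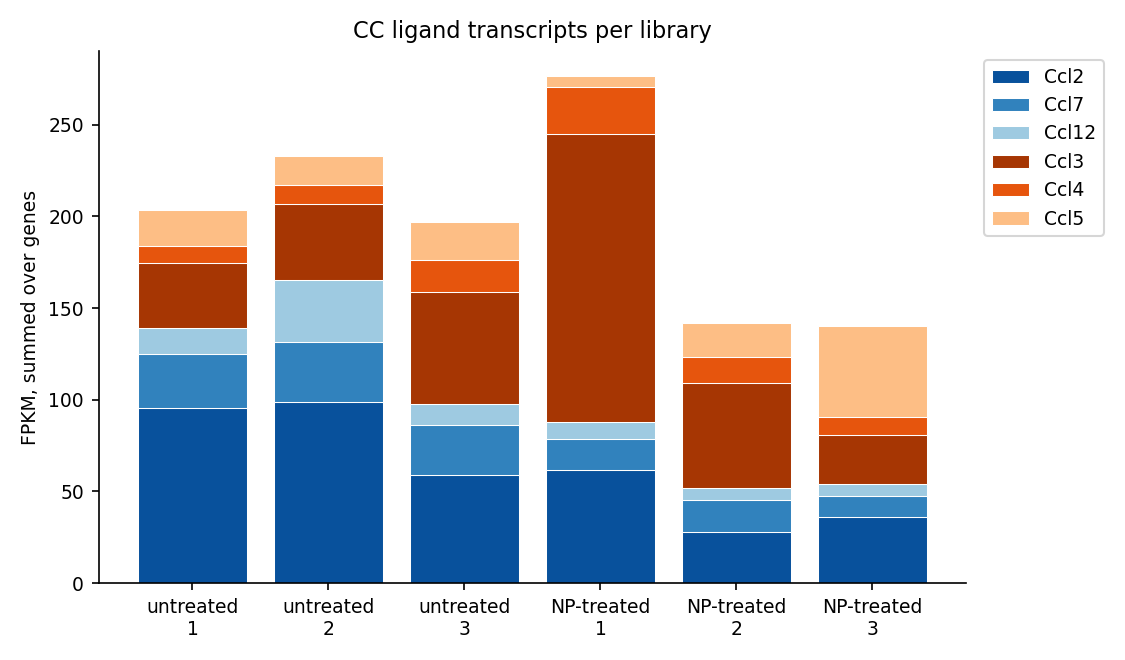
Deposited FPKM of the 6 CC ligands stacked by library, with Ccl2, Ccl7 and Ccl12 in blue and Ccl3, Ccl4 and Ccl5 in orange. The blue part is 97.6 to 165 FPKM in the untreated libraries and 52.0 to 87.6 FPKM in the treated ones.

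The genes lie in clusters. In RefSeq's GRCr8 the named genes run Ccl2, Ccl7, Ccl11, Ccl12, Ccl1 in one cluster and Ccl5, Ccl9, Ccl6, Ccl3, Ccl4 in another, and Cx3cl1 lies between Ccl17 and Ccl22. Ccl11, the eosinophil attractant eotaxin between Ccl7 and Ccl12, had a log2 fold change of -1.03 (SE 0.98), with groups that overlapped, at 10.8 to 45.3 CPM untreated and 0.980 to 26.6 CPM treated. In the other cluster, Ccl9, a macrophage ligand of Ccr1 in the mouse, reached 1395 CPM in NP-treated replicate 1 against 142 to 597 CPM elsewhere, the library where Ccl3 peaked. Its neighbour Ccl6, also a macrophage chemokine of rodents, was at 246, 292 and 305 CPM in untreated replicates 1 to 3 and at 160, 149 and 191 CPM in NP-treated replicates 1 to 3. Its groups did not overlap, and its log2 fold change was -0.75 (SE 0.20, unadjusted p = 0.00625, adjusted p = 0.99999 by edgeR). Ccl22, beside Cx3cl1, was highest in NP-treated replicate 3, at 47.8 CPM, as Cx3cl1 was. Ccl9, Ccl11 and Ccl22 were named for their position.

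**Figure D4:**
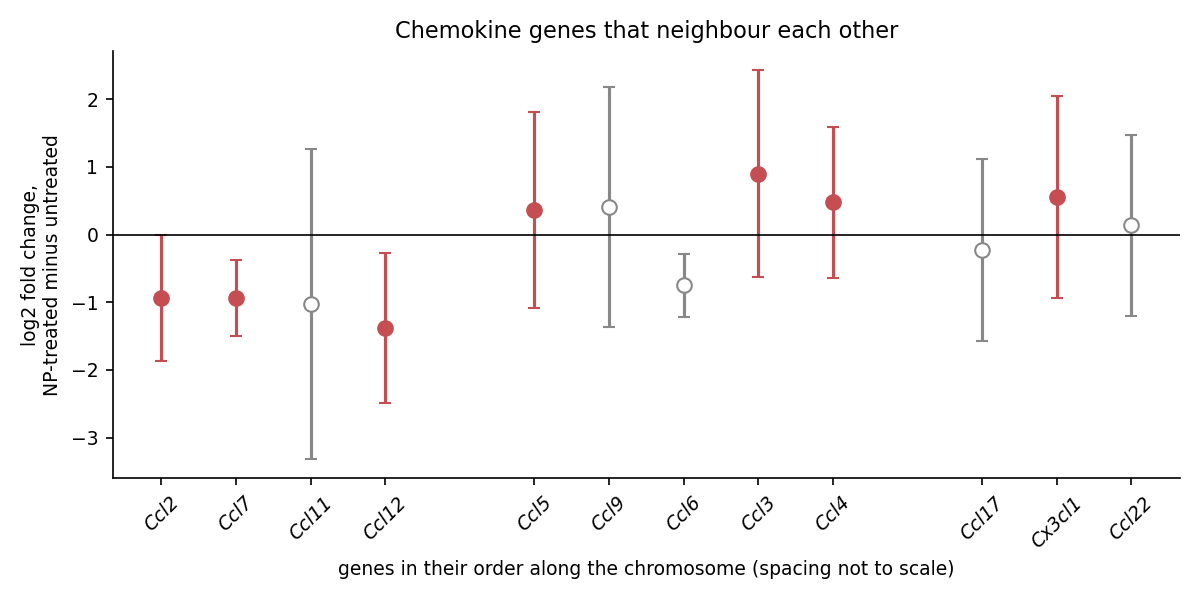
Log2 fold change, treated minus untreated, with its 95% interval by edgeR for members (filled red) and their tested neighbours (open grey), in order along the chromosome within each cluster. All 4 genes from Ccl2 to Ccl12 have values below 0, and Ccl6 has one of -0.75 between neighbours above 0.

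Other CC ligands were measured for 13 genes, 9 of which passed the filter on low counts. Of these 7 had a fold below 1 and 2 above, with a median log2 fold change of -0.58, beside 0.04 over all tested genes. By edgeR 0 were called and 1 had an unadjusted p under 0.05, beside 0% and 1.93% of all tested genes. Ccl6 was the only 1 of them with groups apart, beside 5.67% of all tested genes. Ccl24, an eosinophil attractant, and Ccl19, which guides dendritic and T cells, differed between groups by -1.09 (SE 0.48) and -1.79 (SE 0.96) on the log2 scale. Both were highest in untreated replicate 2, at 77.2 CPM for Ccl24 and 48.5 CPM for Ccl19. Ccl21, a ligand shared with Ccl19 by the receptor Ccr7, had -0.58 (SE 0.36).

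Of 9 other CC receptors, 5 had a fold below 1 and 4 above, with a median of -0.20. By edgeR 0 were called and 1 had an unadjusted p under 0.05, beside 0% and 1.93% of all tested genes. Ccr7, which directs cells to lymphoid tissue, was at 3.17, 15.1 and 7.54 CPM in untreated replicates 1 to 3 and at 0.871, 2.14 and 2.92 CPM in NP-treated replicates 1 to 3. Its groups did not overlap, and its log2 fold change was -2.11 (SE 0.67, unadjusted p = 0.0153, adjusted p = 0.99999 by edgeR). Ccr1, the receptor of Ccl3 and Ccl5, was at 20.2 to 22.6 CPM in the untreated libraries and at 115, 35.1 and 18.4 CPM in NP-treated replicates 1, 2 and 3, a log2 fold change of 1.38 (SE 0.61). Ccr1, like Ccl3, was highest in NP-treated replicate 1. Ccr6 and Ccr8 were low, with means of at most 1.30 CPM in a group, with log2 differences of -0.74 (SE 0.74) for Ccr6 and 0.94 (SE 1.04) for Ccr8.

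Of 4 atypical receptors, which bind chemokines without the usual signal, 3 had a fold below 1. Ccrl2 stood at a log2 fold change of 0.80 (SE 0.56), while the scavengers Ackr4, Ackr2 and Ackr3 had -0.55, -0.61 and -0.21. All 3 scavengers were lowest in NP-treated replicate 1. Of 17 genes of receptor signalling, 7 had a fold below 1 and 10 above, with a median of 0.00. Grk2, a kinase that turns off active receptors, had -0.37 (SE 0.20), Rgs1, which speeds the end of the G protein signal, 1.09 (SE 0.67), and Grk3 and the arrestin Arrb1 0.54 and 0.36.

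The 4 genes of fractalkine shedding all had folds slightly above 1, with a median of 0.12. Adam10 and Adam17, the proteases that cut fractalkine from the membrane, were at 0.22 (SE 0.34) and 0.03 (SE 0.34) on the log2 fold scale, and Ctss and Rhbdf2 at 0.21 and 0.03. Of 11 tested inducers and regulators of monocyte chemokines, NF-kB inhibitor genes included, 8 had a fold below 1, with a median of -0.14. Il1b, the cytokine interleukin-1 beta, had -0.54 (SE 0.58), Fos -0.31 (SE 0.32), Csf1, the macrophage growth factor, 0.40 (SE 0.42), and the NF-kB inhibitor gene Nfkbia 0.21 (SE 0.27). In these 4 lists edgeR called 0 genes, and 0 had an unadjusted p under 0.05.

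**Figure D5:**
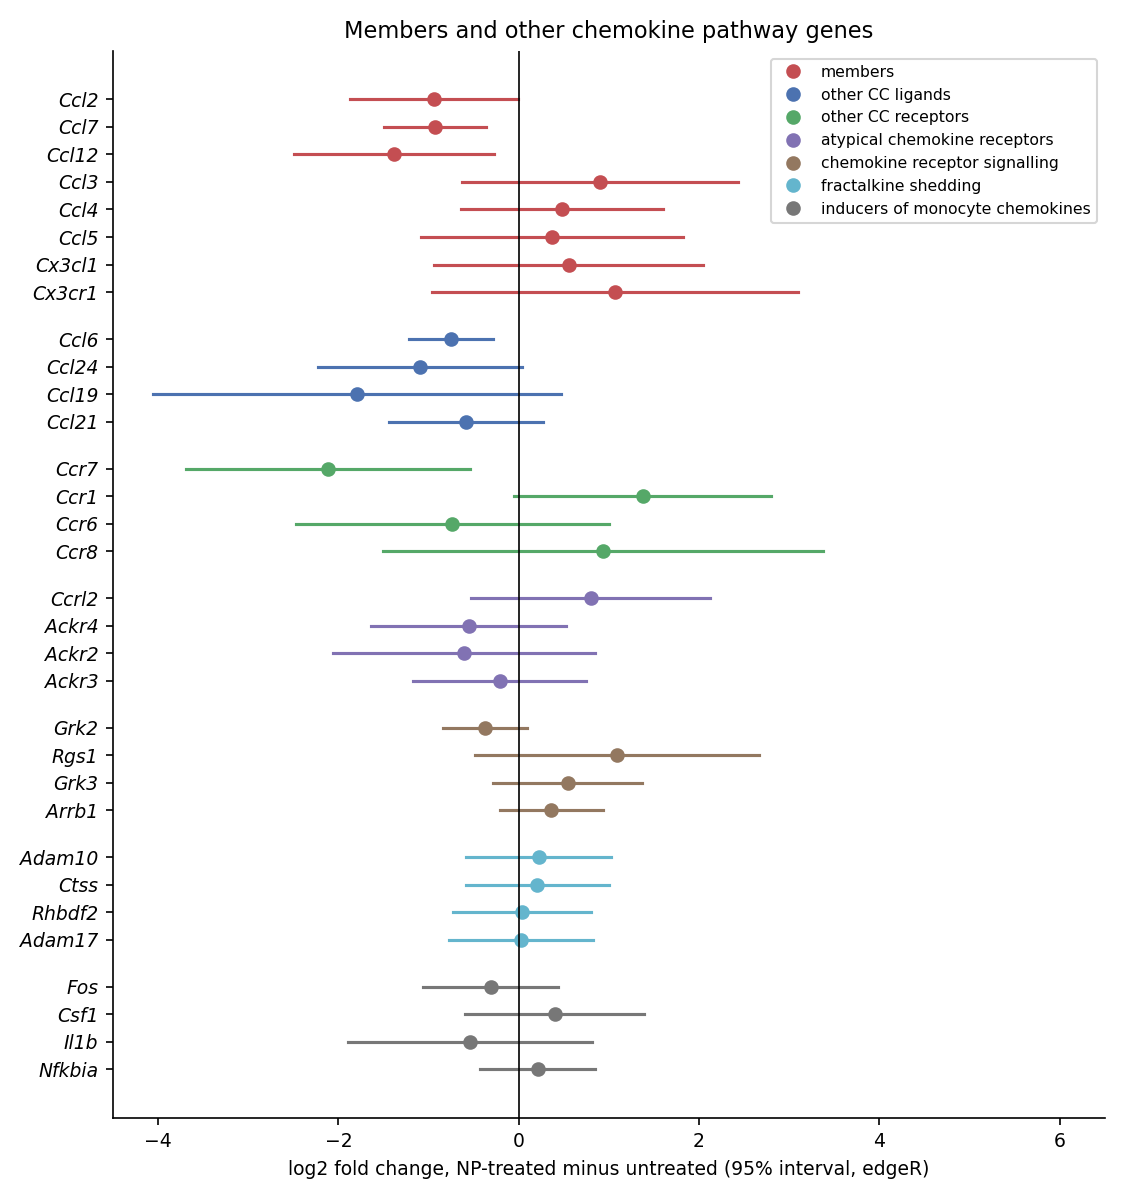
Log2 fold change, treated minus untreated, with its 95% interval by edgeR for the 8 members and up to 4 genes of smallest p-value in each other list. The intervals of Ccl2, Ccl7, Ccl12, Ccl6 and Ccr7 lie below 0, and those of the other genes include 0.

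Levels of the cells that could make or answer these ligands varied beside them. Over all 16522 tested genes, 7333 had a fold below 1. The 15 macrophage markers had one in 9, with none at 0. Their summed level ran from 15342 to 30897 CPM untreated and from 11142 to 30387 CPM treated. Lyz2 made up most of that sum, at 11244 to 25505 CPM untreated and 7914 to 23694 CPM treated. Of the 15 markers, 8 were highest in untreated replicate 2 and 6 in NP-treated replicate 1. The 9 monocyte markers had a fold below 1 in 4, at 898 to 1209 CPM untreated and 813 to 2035 CPM treated, with none at 0. T and NK cell markers had a fold below 1 in all 13 tested, and 10 of the 14 measured were highest in untreated replicate 2. Their sum was 345 to 615 CPM untreated and 235 to 362 CPM treated, with Klrb1 at 0 in at least 1 library. Cd4 made up most of that sum, at 278 to 371 CPM untreated and 169 to 307 CPM treated. Neutrophil markers had a fold below 1 in all 9 tested, at 54.0 to 85.7 CPM untreated and 12.7 to 39.5 CPM treated, with none of the 10 measured at 0. Mast cell markers had a fold below 1 in 7 of 8, at 82.0 to 171 CPM untreated and 32.3 to 73.7 CPM treated, with Fcer1a and Ms4a2 at 0 in at least 1 library. Kit, the only mast cell marker with a fold above 1, held 68.2 of the 73.7 CPM in NP-treated replicate 1. B and plasma cell markers had a fold below 1 in all 8, with a median log2 fold change of -1.57, and 7 of them were highest in untreated replicate 2. Their sum was 67.6 to 238 CPM untreated and 20.6 to 124 CPM treated, with Pax5 at 0 in at least 1 library. Adipocyte markers had a fold below 1 in 8 of 9, with a median of -1.88. In 7 of 9 all treated libraries lay below all untreated ones, beside 3.2% of all tested genes. The adipocyte sum overlapped, at 1919 to 2860 CPM untreated and 1170 to 2456 CPM treated, with none at 0. That overlap came through Fabp4, the only adipocyte marker with a fold above 1. Fabp4 was at 811 to 1612 CPM untreated, and it held 2229 of the 2456 CPM in NP-treated replicate 1. Among these 7 lists the neutrophil and mast cell sums did not overlap between the groups. The part of any of these cells in the lower Ccl2, Ccl7 and Ccl12 was not tested.

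For each member the genes whose log2 CPM was most like it over the 6 libraries were taken from 11557 genes with a mean of at least 2 CPM, by Pearson's r. For Ccl2 these were Gnpat, Nrbp1 and Puf60, for Ccl7 Ecsit, Adck1 and Slc29a1, and for Ccl12 Inpp5d, Nfyc and Piwil2. For Ccl3 they were Ddrgk1, Anxa7 and Atox1, for Ccl4 Rex1bd, Zdhhc7 and Mgst2, and for Ccl5 Gbp5, Bcorl1 and Rbpms2. For Cx3cl1 they were Chadl, Fer and Zbtb41, and for Cx3cr1 Hist1h2bq, Cdc42 and Polr3g. The likeness of these best matches lay between 0.964 and 0.998, and with so many genes set against so few libraries it is a description only.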

How the data were processed

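The authors deposited whole-number read counts and FPKM per gene. The submitters' processing notes name HISAT2 2.0.4 and their design text the read filter SOAPnuke. No source used here names the counter, annotation, genome build or strandedness. Genes with a count of 1 were fewer than genes with a count of 2 in each library (143 against 371 in the first untreated one), which leaves the meaning of a single count unclear.

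All 24988 genes entered edgeR 4.0.16 (R 4.3.3), filterByExpr with a minimum count of 10 kept 16522, and TMM normalization and the quasi-likelihood test compared the 2 groups of 3, with Benjamini-Hochberg adjustment over all kept genes and a threshold of 0.05. The test was tested on simulated data, where it recovered 8% of 50 genes set to a 2-fold change and 50% of 50 set to 4-fold. There were 10 false calls with 16203 genes run, so a change of about 2-fold would mostly be missed. CPM uses TMM-scaled library sizes, and log2 CPM a prior count of 2. Alternatives were DESeq2 1.42.0, its size factors in edgeR, no filter, a replicate block, each library left out, limma-voom and limma 3.58.1 on log2(FPKM + 1).

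The members, lists and motifs were chosen with earlier results or the sequences known. Named genes are the members, up to 4 per pathway list by smallest p and 3 most like each member. Expression of the listed genes Ccr2, Ackr1, Dock2, Cd36, Trac and Pecam1 was not analysed here. One item is not reported here.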

Additional observations from a re-analysis of the deposited data

How the results depend on the processing

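The count of members past the threshold was 0 in all 12 alternatives and that of all genes was 0 in 10 of them, while DESeq2 called 26 genes and limma on log2(FPKM + 1) called 1, neither list holding a member. At an unadjusted p under 0.05 there were 3 members by edgeR and 3 by DESeq2, beside 319 and 481 genes. There were 2 members with DESeq2's size factors in edgeR, 1 without untreated replicate 2 (175 genes) or NP-treated replicate 2 (625), and 2 without untreated replicate 1 (594) or NP-treated replicate 3 (693), where one of them was Ccl3, higher. Ccl2, Ccl7 and Ccl12 kept their direction in all 12 alternatives, over log2 fold changes of -1.47 to -0.67, -1.13 to -0.75 and -1.71 to -0.74. The smallest adjusted p of Ccl7 was 0.275, by DESeq2. With each library left out in turn, 0 genes and 0 members were called. Ccl3 then ran from -0.23 to 1.33, Ccl4 from -0.15 to 0.83 and Cx3cr1 from -0.20 to 1.76, each below 0 without NP-treated replicate 1 only. Ccl5 ran from -0.66 to 0.79 and Cx3cl1 from -0.39 to 1.08, each below 0 without NP-treated replicate 3 only. Ccl5 was also at -0.0549 by limma-voom and at -0.0454 by limma on log2(FPKM + 1). The causes were not tested. The 2 members with groups apart by CPM were also 2 by FPKM and by CPM on raw totals.

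Same-numbered libraries did not deviate together (r of -0.17, 0.07 and -0.27 across genes for numbers 1, 2 and 3), so the numbers were not taken as pairs. With the replicate block 0 genes and 0 members were called, and Ccl5 was at -0.0444.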

Other observations

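Cx3cr1 was highest in the 3 libraries that also had the highest level of Arntl, a core circadian clock gene that peaks opposite to Dbp in the daily cycle. Arntl was at 40.2, 26.1 and 25.95 CPM in untreated replicate 1 and NP-treated replicates 1 and 3, and Cx3cr1 at 9.80, 25.3 and 7.75 CPM. In untreated replicates 2 and 3 and NP-treated replicate 2, Arntl was at 9.83, 8.16 and 6.18 CPM and Cx3cr1 at 3.63, 3.27 and 2.0 CPM. Dbp was at 16.9 to 33.9 CPM in the first 3 libraries and 179 to 228 CPM in the others. No other member analysed divided the libraries in this way. Cx3cl1, for one, was at 12.1 CPM in NP-treated replicate 1 and at 19.3 CPM in NP-treated replicate 2. How many of all genes divide the libraries so was not counted. No time of collection is given in the labels, and the match was seen in these data and not tested.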
